A study of Homo sapiens with 9 samples.

Results

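The hypoxia-inducible factor (HIF) system of renal cells was described here by the mRNA of 9 genes: the alpha subunits *EPAS1* (which encodes HIF-2 alpha), *HIF1A* and *HIF3A*, the beta subunits *ARNT* and *ARNT2*, the prolyl hydroxylases *EGLN1*, *EGLN2* and *EGLN3*, and *HIF1AN*, which encodes the asparaginyl hydroxylase called factor inhibiting HIF. They were taken by NCBI gene identifier from a table of read counts for 28395 genes. All 9 were listed, and 7 of them passed the filter on low counts (a mean of 50 or more per library), which left 12695 genes to test. *HIF3A* and *EGLN2* lay under that filter.

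The libraries came from 3 human kidney cell lines grown stably in Plasmax, a medium that mimics the nutrients of human serum, with 3 libraries per line. HK2 is an immortalised proximal tubule line labelled as parental. 786-O is a line from a primary clear cell renal cell carcinoma (ccRCC), and 786-M1A is a metastatic derivative of 786-O recovered from the lung after injection in vivo. The lines received no treatment. Each condition is a single cell line and the libraries are replicate dishes, so that p-values measure only the spread between these libraries, which may be technical.

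In cells with enough oxygen, the prolyl hydroxylases modify prolines of the alpha subunits, and the modified subunits are bound by a cullin-2 ubiquitin ligase and degraded. Alpha subunits that escape pair with a beta subunit, enter the nucleus and bind the core motif RCGTG next to genes of glycolysis, angiogenesis and growth. Factor inhibiting HIF modifies an asparagine in the last part of the alpha subunit, which blocks the binding of the coactivators p300 and CBP. *EGLN3* is itself a textbook target of HIF. The counts measure mRNA, whereas the level and hydroxylation of the proteins were not analysed here.

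The modified residues of the subunits are shown because they are where the hydroxylases of this set act on its alpha subunits. The stretches are coding DNA of GRCh38, read from the forward strand with GENCODE release 44 exons, and the capitals mark the codon of the residue that is hydroxylated.
EPAS1 proline 405, chr2:46376702-46376719, exon 9: ctggcccagctggctCCC
HIF1A proline 402, chr14:61737049-61737066, exon 9: ttaactttgctggccCCA
EPAS1 proline 531, chr2:46380248-46380265, exon 12: ttggagacactggcaCCC
HIF1A proline 564, chr14:61740770-61740787, exon 12: ttggagatgttagctCCC
HIF3A proline 492, chr19:46329225-46329242, exon 12: ttggagatgctggccCCC
EPAS1 asparagine 847, chr2:46384571-46384591, exon 16: tatgactgtgaggtgAACgtg
HIF1A asparagine 803, chr14:61746996-61747016, exon 15: tatgattgtgaagttAATgct

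The 250 bases before the start of *EGLN1* and *EGLN3* are shown because these paralogs behaved most differently across the lines. They are RefSeq sequences on GRCh38.p14, both from the reverse strand, and the capitals mark a match to ACGTG or GCGTG, the HIF core motif, searched on both strands.
EGLN1, chr1:231422288-231422537: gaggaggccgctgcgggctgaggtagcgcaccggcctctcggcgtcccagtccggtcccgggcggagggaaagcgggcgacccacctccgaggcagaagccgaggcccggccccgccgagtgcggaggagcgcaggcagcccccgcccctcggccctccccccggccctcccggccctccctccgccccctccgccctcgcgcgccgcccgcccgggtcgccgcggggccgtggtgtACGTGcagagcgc
EGLN3, chr14:33951075-33951324: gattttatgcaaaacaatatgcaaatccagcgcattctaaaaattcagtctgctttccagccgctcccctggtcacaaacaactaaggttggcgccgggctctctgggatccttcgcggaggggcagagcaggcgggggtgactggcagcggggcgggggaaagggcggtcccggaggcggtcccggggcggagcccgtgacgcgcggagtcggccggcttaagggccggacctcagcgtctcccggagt
The *EGLN1* window held 1 match and its GC content was 81.2%. The *EGLN3* window held 0 matches and its GC content was 64.0%. At least 1 match was found in 43.2% of 34943 windows of the same length, so that a match is common, and a window without one says nothing of sites elsewhere. The windows at the first start of *EPAS1* and of *HIF1A* held 1 match each.

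Total counts were between 30212291 and 45362428 per library, and levels are given as counts per 1000000 reads (CPM) after TMM scaling. The table's tubule epithelial genes summed to 2705 to 2739 CPM in HK2, 1726 to 1774 in 786-O and 1796 to 1889 in 786-M1A, with 11 of 17 markers over the filter. Of the defining proximal tubule genes, *LRP2* was at 0 in all 9 libraries, and *HNF4A* had 0 to 2 counts in HK2 and 786-M1A and 15 to 20 in 786-O, so the labelled cell type rested on the other markers. The fibroblast list summed to 77.6 to 86.8 CPM in HK2, 281 to 350.3 in 786-O and 303 to 306 in 786-M1A, and its part in the differences below was not tested. The near sums of the cancer lines came from different genes, since *COL1A1*, a fibrillar collagen, had 261 to 328 CPM in 786-O and 15.5 to 18.0 in 786-M1A, and *PDGFRB*, a growth factor receptor, 2.28 to 2.99 and 280.3 to 285. Endothelial markers summed to at most 1.25 CPM and leukocyte markers to at most 12.4 CPM, with *PTPRC* and *CD3E* at 0 in every library. The leukocyte sum came mostly from *CSF1R*, with 10.8 to 12.0 CPM in HK2, 6.79 to 7.76 in 786-O and 3.86 to 4.65 in 786-M1A.

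The renal cancer lines had far less *HIF1A* mRNA and less *EPAS1* mRNA than HK2, more *ARNT2* and much more *EGLN3*, while *EGLN1*, *ARNT* and *HIF1AN* lay within 1.375-fold of HK2. Between the cancer lines, 786-M1A had more *EPAS1* and *EGLN3* and less *HIF1A*, *ARNT2*, *EGLN1* and *HIF1AN* than 786-O. In 786-O against HK2, 6 of 7 tested genes passed an adjusted p of 0.05 in edgeR's quasi-likelihood test, 3 higher and 3 lower, where 84.2% of all genes tested passed, 41.7% higher and 42.5% lower. In 786-M1A against 786-O it was 6 of 7, 2 higher and 4 lower, where 56.2% of all genes passed, 29.0% higher and 27.1% lower. In 786-M1A against HK2 all 7 passed, 3 higher and 4 lower, where 85.0% of all genes passed, 42.0% higher and 42.9% lower. These shares are so high that a call says little, and the results below rest on the size of the differences. The comparisons share libraries and are given side by side.

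**Figure D1:**
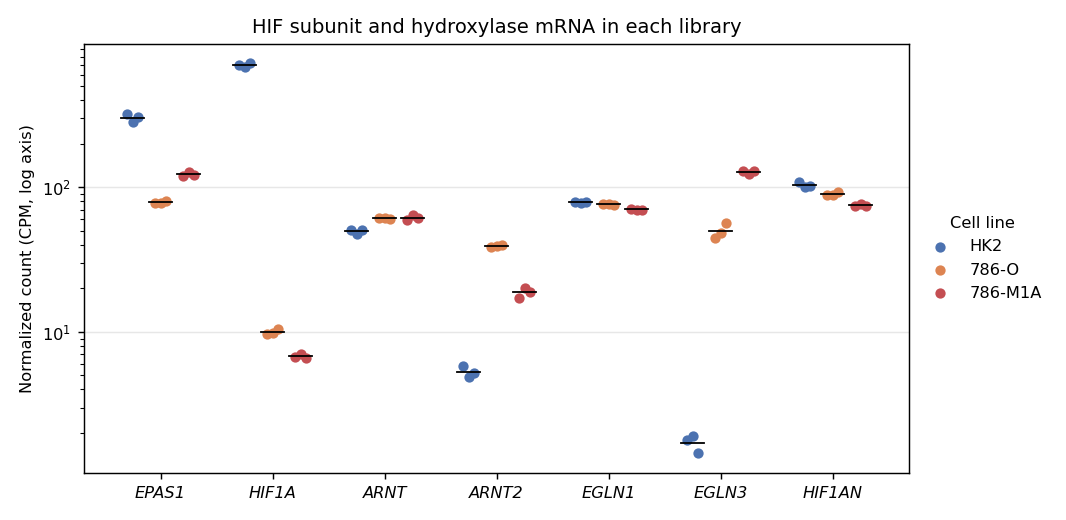
Normalized counts (CPM, log axis) of the 7 tested genes in each of the 9 libraries, coloured by cell line, with 3 points and a black bar for the mean per line. *HIF1A* drops from 699 to 9.98 and 6.79 CPM and *EGLN3* rises from 1.715 to 49.9 and 128 CPM, whereas *EGLN1* stays between 70.0 and 79.0 CPM.

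*HIF1A*, the alpha subunit best known for its glycolytic targets, lies on chromosome 14 (GRCh38 14:61695513-61748259). Its normalized counts were 701, 677 and 718 CPM in the HK2 libraries, 9.67, 9.85 and 10.4 in 786-O and 6.76, 7.03 and 6.58 in 786-M1A. The 3 lines did not overlap, and the gap between HK2 and the cancer lines was far wider than that between the cancer lines. *HIF1A* was 70.0-fold lower in 786-O than in HK2 (log2 fold change -6.13, SE 0.05, edgeR adjusted p = 2.62e-27), rank 287 from the lowest of 12695 genes. In bulk libraries, fewer cells with a transcript and less of it per cell cannot be told apart. It was 103-fold lower in 786-M1A than in HK2 (log2 fold change -6.68, SE 0.05, edgeR adjusted p = 2.25e-27). Between the cancer lines it was 1.47-fold lower in 786-M1A (log2 fold change -0.55, SE 0.06, edgeR adjusted p = 1.36e-07). The antisense gene *HIF1A-AS1*, which shares 2.58% of the exon bases of *HIF1A*, had 14, 27 and 25 counts for HK2, 4, 3 and 5 for 786-O and 2, 2 and 1 for 786-M1A. *HIF1A-AS2* had 3, 4 and 6 counts in HK2 and 0 in the 6 libraries of the cancer lines. The genes closest to *HIF1A* in pattern were *COL8A2*, *GPX3* and *GPR37*, at Euclidean distances of 0.534, 0.606 and 0.629 in centred log2 CPM. *COL8A2* and *GPR37* passed the filter through HK2. They had means of 0.146 and 0.0562 CPM in 786-O, near the floor of 3 counts, so these distances are uncertain.

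*EPAS1*, the alpha subunit regarded as the driver in ccRCC, lies on chromosome 2 (2:46293667-46386697). It had 320.2, 284 and 304 CPM for HK2, 77.6, 78.3 and 80.3 for 786-O and 119, 128 and 122 for 786-M1A. No line overlapped another, and 786-M1A lay between the others. *EPAS1* was 3.85-fold lower in 786-O than in HK2 (edgeR adjusted p = 6.34e-20). In 786-M1A it was 2.46-fold lower than in HK2 (edgeR adjusted p = 3.65e-17) and 1.56-fold higher than in 786-O (edgeR adjusted p = 8.25e-11). The genes whose pattern over the 9 libraries lay closest to it were *HAS3*, *RFTN1* and *PDP1*, at Euclidean distances of 0.193, 0.203 and 0.211 in centred log2 CPM. *HAS3*, which encodes a hyaluronan synthase, fell from 110 CPM in HK2 to 31.0 in 786-O, with 45.05 in 786-M1A.

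Because *EPAS1* and *HIF1A* differ in length, their levels were compared as CPM per kilobase of exon. In HK2, *HIF1A* stood at 136 ± 3.94 CPM per kilobase (SD, n = 3) and *EPAS1* at 41.6 ± 2.47. In 786-O the order turned, with *HIF1A* at 1.94 ± 0.076 and *EPAS1* at 10.8 ± 0.192, and in 786-M1A *HIF1A* stood at 1.32 ± 0.0432 and *EPAS1* at 16.9 ± 0.582. *HIF1A* thus went from percentile 98.5 of the tested genes in HK2 to percentiles 26.7 in 786-O and 21.4 in 786-M1A, and *EPAS1* from 92.1 to 67.0 and 76.8. *EPAS1* made up 23.4% ± 0.826 of the sum of both for HK2, 84.8% ± 0.275 for 786-O and 92.75% ± 0.171 for 786-M1A (SD, n = 3). The shift in share came with a lower, not a higher, *EPAS1* level in the cancer lines. The ratio of *EPAS1* to *HIF1A* was 18.2-fold higher in 786-O than in HK2, 2.29-fold higher in 786-M1A than in 786-O and 41.8-fold higher in 786-M1A than in HK2. Each of these ratios had p = 0.1 in an exact two-sided permutation test, which is the smallest value that 3 against 3 libraries can give.

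*HIF3A*, which encodes an alpha subunit with isoforms that oppose the others, was at or near 0. It had 0, 0 and 1 counts for HK2, 0, 1 and 1 for 786-O and 0 for all 3 libraries of 786-M1A, all under 3 counts, so no difference was detectable at this depth.

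*ARNT*, also called HIF-1 beta, is the common partner of the alpha subunits. It had 50.4, 47.8 and 50.8 CPM for HK2, 60.9, 61.65 and 60.1 for 786-O and 59.0, 64.5 and 61.1 for 786-M1A. The cancer lines overlapped each other and lay above HK2. *ARNT* was higher in 786-O than in HK2 by 0.29 on the log2 scale (SE 0.04, edgeR adjusted p = 3.07e-06) and in 786-M1A by 0.31 (SE 0.04, edgeR adjusted p = 1.47e-06). Between the cancer lines the log2 difference was 0.02 (SE 0.04, edgeR adjusted p = 0.771).

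*ARNT2*, a paralog best known from neurons, moved most among the partners. It had 5.77, 4.90 and 5.20 CPM for HK2, 38.4, 39.4 and 39.97 for 786-O and 17.2, 20.1 and 19.0 for 786-M1A. Every library of 786-M1A lay between those of the other lines. *ARNT2* was 7.46-fold higher in 786-O than in HK2 (log2 fold change 2.90, SE 0.07, edgeR adjusted p = 1.61e-19), 2.09-fold lower in 786-M1A than in 786-O (edgeR adjusted p = 1.89e-12) and 3.57-fold higher in 786-M1A than in HK2 (edgeR adjusted p = 1.57e-15). Per kilobase it made up 8.15% ± 0.481 of both partners for HK2, 34.95% ± 0.641 for 786-O and 20.2% ± 0.615 for 786-M1A (SD, n = 3), so *ARNT* remained the more abundant partner in each line. The 415 tested genes of chromosome 15, where *ARNT2* lies, had the highest median of the 22 autosomes in 786-O against HK2, a log2 fold change of 0.49. Their median was the lowest of the autosomes in 786-M1A against 786-O, at -0.31, so that *ARNT2* and its chromosome moved the same way in both comparisons, with *ARNT2* further out. The part of the chromosome in the result was not tested, and the medians by chromosome were computed after the values of these genes were seen.

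**Figure D2:**
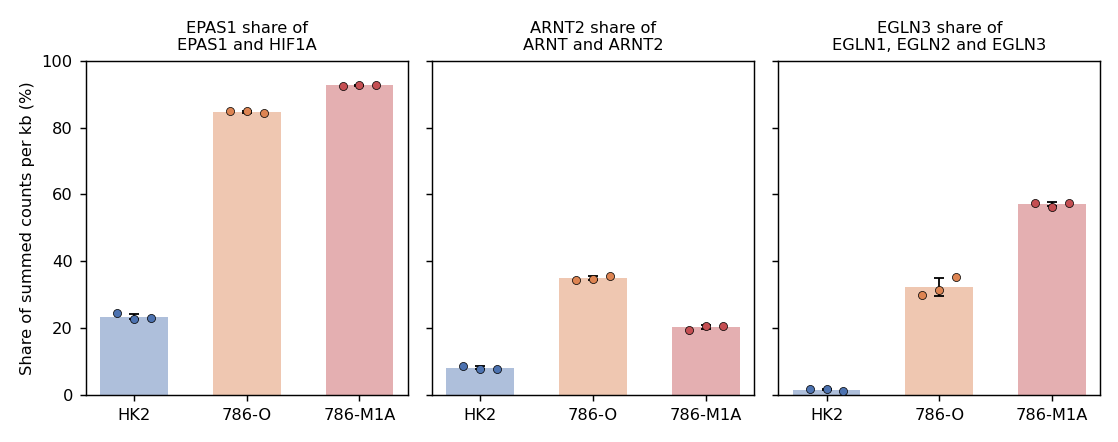
Share of *EPAS1*, *ARNT2* and *EGLN3* in the summed counts per kilobase of their families (percent), as bars for the mean of 3 libraries, error bars of 1 SD and a point per library. *EPAS1* and *EGLN3* gain share from HK2 through 786-O to 786-M1A (*EGLN3* from 1.57% to 32.2% and 57.05%), whereas *ARNT2* is highest in 786-O.

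*EGLN1*, also called PHD2 and regarded as the main oxygen sensor among the prolyl hydroxylases, hardly varied. It had 78.9, 78.2 and 79.0 CPM for HK2, 76.5, 76.8 and 75.6 for 786-O and 70.75, 70.0 and 70.0 for 786-M1A. The libraries of HK2 and 786-O did not overlap, but the log2 difference of -0.04 (SE 0.04) did not pass the test (edgeR adjusted p = 0.265). *EGLN1* was lower in 786-M1A by small amounts that passed, with a log2 fold change of -0.12 against 786-O (SE 0.04, edgeR adjusted p = 0.00996) and of -0.16 against HK2 (SE 0.04, edgeR adjusted p = 0.000386). The genes closest to it in pattern were *WDR33*, *UBXN2A* and *B3GALNT2*, at distances of 0.076, 0.079 and 0.085. In the annotation, 55.8% of the exon bases of *EGLN1* are also part of a transcript on the same strand that has no row in the table, and how the reads were assigned there was not tested.

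*EGLN3*, also called PHD3, showed the largest rise of the set against HK2. It had 1.79, 1.91 and 1.45 CPM for HK2, 44.85, 48.4 and 56.4 for 786-O and 130.2, 124 and 130 for 786-M1A. The lines were far apart, with 56 to 77 reads behind each HK2 value and at least 1827 behind every other. *EGLN3* was 29.3-fold higher in 786-O than in HK2 (log2 fold change 4.87, SE 0.11, edgeR adjusted p = 5.65e-16) and 75.2-fold higher in 786-M1A than in HK2 (log2 fold change 6.23, SE 0.10, edgeR adjusted p = 9.62e-18), ranks 136 and 105 from the highest of 12695 genes. Between the cancer lines it was 2.56-fold higher in 786-M1A (log2 fold change 1.36, SE 0.07, edgeR adjusted p = 7.31e-11). The nearest genes in pattern were *ALDH2*, a mitochondrial aldehyde dehydrogenase with 0.287, 12.0 and 30.7 CPM in the 3 lines, *C5orf46* and *LINC01929*, at distances of 0.571, 0.576 and 0.626. *C5orf46* and *LINC01929* had means of 0 and 0.0629 CPM in HK2, under the floor of 3 counts. Both passed the filter through the cancer lines, so their distances are uncertain.

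Per kilobase, *EGLN1* stood at 14.6 ± 0.0738 in HK2 and *EGLN3* at 0.233 ± 0.0327, whereas in 786-M1A *EGLN1* stood at 13.1 ± 0.079 and *EGLN3* at 17.4 ± 0.469 (SD, n = 3). *EGLN3* therefore passed *EGLN1* only in 786-M1A when union exon length was used, since it stood at 6.775 ± 0.808 against 14.2 ± 0.115 in 786-O. With the length of the longest transcript instead, *EGLN3* stood at 17.5 and *EGLN1* at 17.6 in 786-O, a gap smaller than the spread between libraries (share of *EGLN3* 49.7% ± 3.10, SD, n = 3). The ratio of *EGLN3* to *EGLN1* was 30.1-fold higher in 786-O than in HK2, 2.80-fold higher in 786-M1A than in 786-O and 84.1-fold higher in 786-M1A than in HK2 (exact permutation p = 0.1 each).

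*EGLN2*, also called PHD1, had 3, 4 and 5 counts for HK2, 5, 4 and 5 for 786-O and 4, 2 and 3 for 786-M1A. Its neighbour *RAB4B* and the read-through gene *RAB4B-EGLN2*, which in RefSeq spans all of *EGLN2* on the same strand, were at 0 in all 9 libraries. With all 3 genes of the locus at or near 0, these counts were not read as the level of *EGLN2* mRNA, and the share of *EGLN3* among the prolyl hydroxylases is in effect a share of *EGLN1* and *EGLN3*. How reads on shared exons were assigned was not tested.

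*HIF1AN* fell in steps. It had 108, 100 and 102 CPM for HK2, 88.3, 88.0 and 92.7 for 786-O and 73.8, 76.7 and 74.8 for 786-M1A. No library of one line overlapped those of another. The log2 fold change was -0.20 in 786-O against HK2 (SE 0.04, edgeR adjusted p = 9.68e-05), -0.26 in 786-M1A against 786-O (SE 0.04, edgeR adjusted p = 2.12e-05) and -0.46 in 786-M1A against HK2 (SE 0.04, edgeR adjusted p = 1.14e-09). *NDUFB8*, on the other strand, shares 2.34% of its exon bases and had 2448 to 4371 counts. The use of strand in counting is not given in the sources used here.

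**Figure D3:**
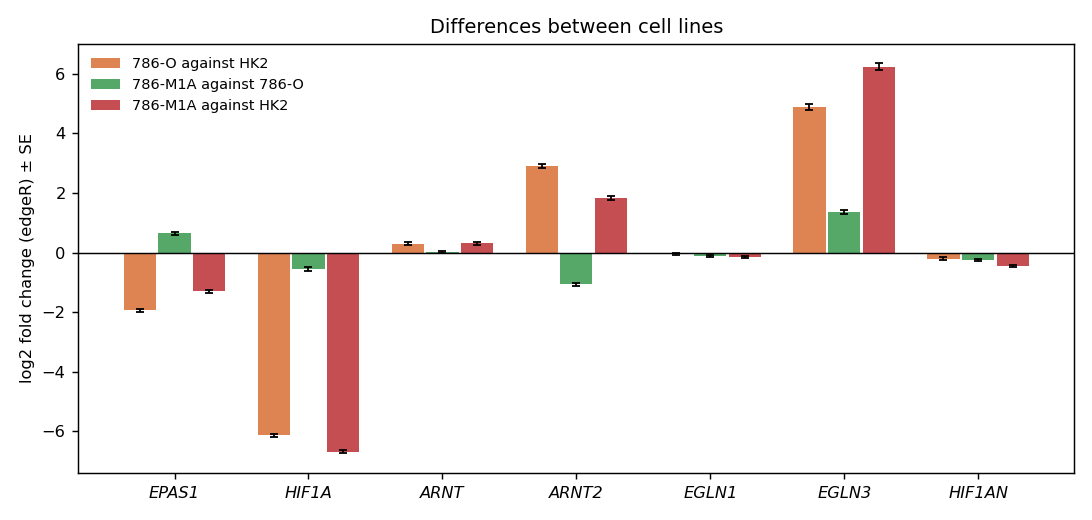
Log2 fold changes from edgeR of the 7 tested genes in the 3 comparisons, as bars with error bars of 1 SE. The bars against HK2 reach from -6.68 for *HIF1A* to 6.23 for *EGLN3*, and those of *ARNT*, *EGLN1* and *HIF1AN* stay within 0.46 of 0.

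*HIF1A* and *EGLN3* both lie on chromosome 14 and moved in opposite directions there. Of its 405 tested genes, 359 were lower and 23 higher in 786-O than in HK2, with a median log2 fold change of -0.74, the lowest of the 22 autosomes, against -0.01 over all tested genes. In 786-M1A against HK2 the median was -0.68, again the lowest, and in 786-M1A against 786-O it was 0.07. Within 2 Mb of *HIF1A*, all 14 other tested genes were lower in 786-O than in HK2, with a median of -1.04. The nearest, *SNAPC1*, which encodes a subunit of the small nuclear RNA activating complex and lies 0.058 Mb away, had 265, 282 and 284 CPM for HK2, 7.78, 7.81 and 8.18 for 786-O and 4.92, 5.04 and 6.19 for 786-M1A. Its log2 fold change in 786-O against HK2 was -5.13 (edgeR adjusted p = 7.71e-25), next to *HIF1A* in rank among the genes of the chromosome (15 and 14 from the lowest). Within 2 Mb of *EGLN3*, all 17 other tested genes were lower in 786-O than in HK2, with a median of -0.73, while *EGLN3* was higher and ranked 404 of 405. *SPTSSA*, whose span overlaps that of *EGLN3* in the annotation with no shared exon base, had 39.9, 32.5 and 36.3 CPM in the 3 lines. DNA copy number was not analysed here, and its part in these values was not tested.

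**Figure D4:**
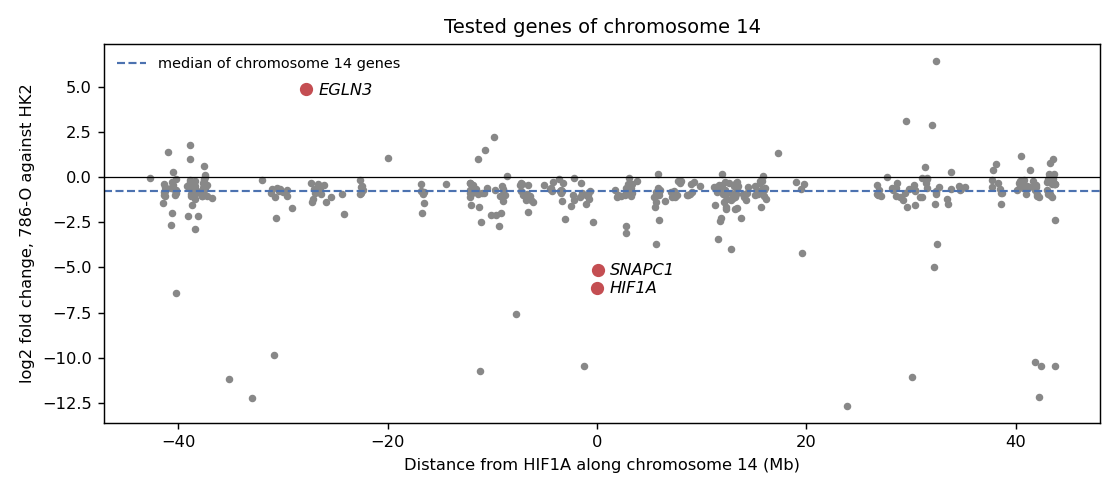
Log2 fold change in 786-O against HK2 of the 405 tested genes of chromosome 14, by distance from *HIF1A* (Mb), with a dashed line at their median of -0.74. Most points lie under 0, *HIF1A* and *SNAPC1* sit together at -6.13 and -5.13, and *EGLN3* stands at 4.87.

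Genes that act with the members were read from 5 lists of 68 genes, of which 61 were tested. In 786-O against HK2, 31 of them were higher and 20 lower, in 786-M1A against 786-O 28 were higher and 8 lower, and in 786-M1A against HK2 36 were higher and 18 lower. The shares called in either direction, 83.6%, 59.0% and 88.5%, were near the 84.2%, 56.2% and 85.0% of all genes tested. By that measure the counts say nothing particular of the lists. By direction, 41.7%, 29.0% and 42.0% of all genes tested were higher and 42.5%, 27.1% and 42.9% lower. In each comparison a larger part of the listed genes was higher and a smaller part lower, which was not tested. These shares of all genes also apply to the counts of each list below. Of the cullin-2 ligase that binds hydroxylated alpha subunits, 4 subunits are given here, which do not stand for the whole list. These 4 were higher in 786-O than in HK2, led by *ELOC* (log2 fold change 0.46, edgeR adjusted p = 1.25e-09) and the scaffold *CUL2* (0.42, edgeR adjusted p = 1.31e-09). In 786-M1A against 786-O, 3 were higher, led by the RING protein *RBX1* at 0.31 and *ELOC* at 0.17, and *ELOB* was not called (0.11, edgeR adjusted p = 0.088).

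Of 16 tested cofactors and stability factors, 4 were higher, 6 lower and 6 not called in 786-O against HK2, with a median log2 fold change of -0.04. The transmembrane prolyl hydroxylase *P4HTM* was 3.45-fold higher in 786-O, with 6.56 to 7.78 CPM in HK2 and 24.1 to 25.4 in 786-O, and the coactivator *EP300* was higher by 0.32 on the log2 scale (edgeR adjusted p = 0.0394). *CITED4* and *CITED2*, which compete with HIF for p300 and CBP, were the lowest. *CITED4* had 15.3, 16.5 and 17.0 CPM in HK2 and 0.185 to 0.334 in the cancer lines, a 62.9-fold difference between HK2 and 786-O (edgeR adjusted p = 5.14e-20). *CITED4* passed the filter through HK2. *CITED2* was 4.74-fold lower in 786-O than in HK2. In 786-M1A against 786-O, 4 were higher, led by the deubiquitinase *USP20* at 0.43 and *FKBP8* at 0.17, and *PTGES3* alone was lower, by 0.09 on the log2 scale (edgeR adjusted p = 0.0358). In 786-M1A against HK2, 5 were higher and 7 lower. In either direction, 62.5% of the list was called in 786-O against HK2 and 31.2% in 786-M1A against 786-O. In 786-M1A against HK2 it was 75.0%. Of all genes tested, 84.2%, 56.2% and 85.0% were called. The lower shares of the list were not tested.

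The other bHLH-PAS proteins are relatives of the HIF subunits, and only some of them pair with *ARNT* or *ARNT2*. Of 14 tested genes, 8 were higher and 4 lower in 786-O against HK2, beside 41.7% and 42.5% of all genes tested. *SIM2*, a repressor that pairs with ARNT proteins, had 0.0961, 0.124 and 0.324 CPM in HK2 and 1.73, 1.72 and 2.26 in 786-O (9.66-fold, edgeR adjusted p = 9.70e-10). *SIM2* passed the filter through the cancer lines, and its lowest HK2 value was at the floor of 3 counts. *CLOCK* was higher by 0.96 on the log2 scale, and *PER1* and *SIM1* were lower, with log2 fold changes of -1.80 and -0.94. In 786-M1A against 786-O, 4 were higher, led by *NPAS2* at 0.62 and the aryl hydrocarbon receptor repressor *AHRR* at 0.61, and 5 were lower, led by *AHR* at -0.60 and *BMAL1* at -0.23. In 786-M1A against HK2, 10 were higher and 4 lower. Of all genes tested, 29.0% were higher and 27.1% lower in 786-M1A against 786-O. In 786-M1A against HK2 these shares were 42.0% and 42.9%.

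Among 15 tested genes that lean on *HIF1A*, mostly of glycolysis and mitophagy, 7 were higher and 7 lower in 786-O than in HK2. Of all genes tested, 41.7% were higher and 42.5% lower. The median log2 fold change of the list was -0.03 beside *HIF1A* at -6.13. The glucose transporter *SLC2A1* had 194, 186 and 200.5 CPM in HK2 and 802, 802 and 822 in 786-O (4.18-fold, edgeR adjusted p = 8.19e-22). The collagen prolyl hydroxylase *P4HA2* was 3.08-fold higher, and the mitophagy receptor *BNIP3L* and the repressor *MXI1* were lower, with log2 fold changes of -1.07 and -0.73. In 786-M1A against 786-O, 9 were higher and 2 lower with a median of 0.18, led by *SLC2A1* at 0.40 and *ALDOA* at 0.38 and, at the other end, *P4HA1* at -0.28 and *P4HA2* at -0.14. In 786-M1A against HK2, 8 were higher and 5 lower. Of all genes tested, 29.0% were higher and 27.1% lower in 786-M1A against 786-O. In 786-M1A against HK2 these shares were 42.0% and 42.9%. *CA9*, the carbonic anhydrase often used as a HIF marker, had 0 to 3 counts in every library and was not tested.

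Among 11 tested genes that lean on *EPAS1*, 8 were higher and 2 lower in 786-O than in HK2. Of all genes tested, 41.7% were higher and 42.5% lower. The median of the list was 1.97, while *EPAS1* itself was lower. The growth factor *TGFA* had 22.55, 21.99 and 20.7 CPM in HK2 and 281, 336 and 366 in 786-O (15.1-fold, edgeR adjusted p = 2.13e-11). *ADM*, the vasodilator peptide adrenomedullin, had 2.08, 2.35 and 1.83 CPM for HK2, 26.1, 28.8 and 28.1 for 786-O and 55.3, 53.3 and 52.05 for 786-M1A, and was 13.3-fold higher in 786-O than in HK2. *LOX* and *PLIN2* went the other way. *LOX*, a collagen crosslinking enzyme, had 41.3, 42.8 and 46.2 CPM for HK2, 2.18, 2.81 and 2.80 for 786-O and 14.1, 12.7 and 14.2 for 786-M1A. It was 16.8-fold lower in 786-O than in HK2 and 5.29-fold higher in 786-M1A than in 786-O (edgeR adjusted p = 9.48e-21 and 8.35e-15). *PLIN2*, a coat protein of lipid droplets, was lower in 786-O, with a log2 fold change of -0.53.

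In 786-M1A against 786-O, 8 of the 11 were higher and 0 lower, with a median of 0.42 over the list and 0.01 over all genes tested. Of all genes tested, 29.0% were higher and 27.1% lower. The chemokine receptor *CXCR4* led the list and *LOX* came next. *CXCR4* had 0.0225 to 0.132 CPM in 786-O, near the floor of 3 counts, and 5.33 to 6.45 in 786-M1A. It passed the filter through 786-M1A alone, so the size of its change is uncertain. In 786-M1A against HK2, 9 were higher and 2 lower, beside 42.0% and 42.9% of all genes tested, with a list median of 3.27. *EPO*, the classical kidney target of *EPAS1*, had 0 to 2 counts in every library and was not tested. The lists are textbook targets and share regulation between both alpha subunits and other factors, so a count does not assign a gene to a subunit.

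**Figure D5:**
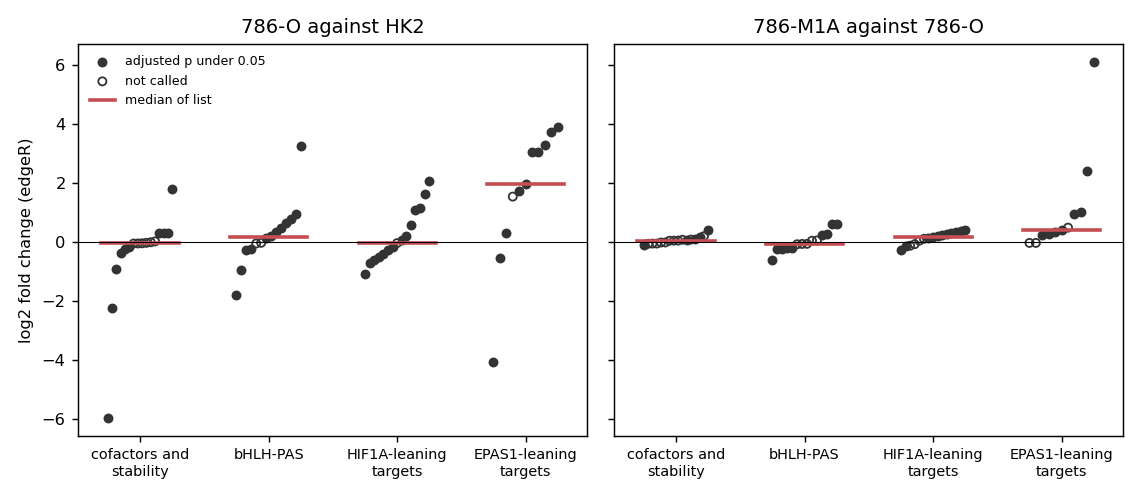
Log2 fold changes of the tested genes of 4 lists in 786-O against HK2 and in 786-M1A against 786-O, with filled points for an adjusted p under 0.05, open points for genes not called and a red bar for the median of each list. The targets that lean on *EPAS1* have medians of 1.97 and 0.42, and those that lean on *HIF1A* have -0.03 and 0.18.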

How the data were processed

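RNA was sequenced from 9 libraries of 3 cell lines, grouped by their labels. Per the labels, the authors extracted RNA with a column kit and prepared TruSeq Stranded mRNA libraries. They deposited whole-number read counts per gene without normalization, and the submitters' processing notes name featureCounts and GRCh38. The annotation version and strand setting are not given in the sources used here. The variance stabilisation described in the study's methods is not part of the deposited counts and was not run here.

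Symbols from RefSeq matched 27745 of 28395 identifiers. As in the study, genes whose mean count was under 50 were left out. Counts were normalized by TMM and tested in edgeR 4.0.16 (R 4.3.3) with a robust quasi-likelihood fit of all 9 libraries, a coefficient per line and Benjamini-Hochberg adjustment over 12695 genes (threshold 0.05). The fit was tested on simulated data. Single values were compared by exact two-sided permutation tests. CPM are TMM-scaled. Levels between genes are CPM per kilobase of union exon length in GENCODE release 44. A floor of 3 counts is at most 0.0993 CPM and covers counting error only.

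The members and lists were chosen with earlier results of these data known. Named from each list were the 2 largest called changes in each direction in 786-O against HK2 and in 786-M1A against 786-O, and, for 4 members, the 3 tested genes nearest in centred log2 CPM (prior count 2). 1 gene of the ligase list is not reported here. Promoters are RefSeq sequences on GRCh38.p14 and coding sites came from GENCODE release 44. Alternatives were DESeq2 1.42.0, limma 3.58.1 with voom, RLE and upper-quartile scaling, no filter, at least 10 counts in every library, only the lines compared, a replicate block, each library left out, and another gene length.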

Additional observations from a re-analysis of the deposited data

Results flagged for a closer look

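The effect against HK2 differed between the cancer lines for 6 of the 7 tested genes, by edgeR's contrast of 786-M1A with 786-O. That contrast is the one reported above and not a further test. In it 56.2% of all genes tested passed, so the count says little of the set. The values below are the effect in 786-M1A minus that in 786-O on the log2 scale, and both effects share the HK2 libraries. For *EPAS1* the difference was 0.643, since it was less reduced in 786-M1A. For *HIF1A* it was -0.555, a further reduction of a gene that was already low in 786-O. *ARNT2* had a difference of -1.06, as the excess over HK2 was smaller in 786-M1A. *EGLN3* had a difference of 1.36, in the direction of its effect in 786-O. The differences of *HIF1AN*, -0.255, and *EGLN1*, -0.119, were small. The adjusted p was at most 0.00996, that of *EGLN1*. With 3 libraries per line, no group was large enough for a test of single libraries that stand apart.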

How the results depend on the processing

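Of 357 repeats of the 21 fold changes of HIF genes, 355 kept their direction and their side of the threshold. *EGLN1* in 786-O against HK2 was called with upper-quartile scaling (log2 fold change -0.09, adjusted p = 0.0385), and *ARNT* in 786-M1A against 786-O, not called in any fit, ran from -0.0186 without library 2 of 786-M1A (adjusted p = 0.775) to 0.0455 without library 1. The labels number the replicates and state no pairing. Deviations of same-numbered libraries correlated at -0.029, -0.057 and -0.051 between 786-O and HK2. Between the cancer lines they correlated at 0.215, 0.074 and 0.11, and 6 of 6 libraries correlated best with their own number. That is a hint of pairing from the data and not the design (0 of 6 in 786-O against HK2 and 1 of 6 in 786-M1A against HK2). With the replicate block, 10680, 7179 and 10804 genes were called in 786-O against HK2, 786-M1A against 786-O and 786-M1A against HK2, and the HIF genes called stayed at 6, 6 and 7. Without the filter on low counts 13550, 8080 and 13738 of 21241 genes were called.

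Shares of a family depend on gene length. With the longest transcript, the share of *EPAS1* was 24.958% for HK2, 85.833% for 786-O and 93.285% for 786-M1A, that of *ARNT2* 6.97%, 31.221% and 17.638%, and that of *EGLN3* 3.205%, 49.712% and 73.438%. The order of the lines was the same with both lengths. Depth limits *HIF3A*, *CA9* and *EPO*, with at most 3 counts in any library.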

Other observations

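*KDR*, the receptor of the HIF target VEGF-A, was under the filter and had 0, 1 and 0 counts for HK2, 10, 3 and 11 for 786-O and 40, 33 and 33 for 786-M1A. It was named after its values were seen. The order of the lines was that of *EGLN3*, and no test was run.

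Among the genes within 2 Mb of *EGLN3*, *NFKBIA*, an inhibitor of NF-kappa B, had 48.6 CPM for HK2, 25.2 for 786-O and 43.55 for 786-M1A, and was the only one besides *ARHGAP5-AS1* to differ by more than 0.7 upward on the log2 scale between 786-M1A and 786-O (0.79, edgeR adjusted p = 7.31e-11). These neighbours were chosen after their values were seen.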
